A study of Mus musculus with 64 samples.

Results

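The genes described here are a list of 9, named as effectors that neurons make in response to synaptic activity: Arc, Npas4, Homer1, Nptx1, Nptx2, Gadd45b, Gadd45g, Vgf and Scg2. The name of the list is not a result of these data. Their rows were found by gene identifier among the 55401 genes of a bulk RNA-seq count table, and all 9 were among the 18971 genes with enough counts to be tested. Male C57BL/6J mice, 10 weeks of age, chow-fed and group-housed, were injected once into the peritoneum with psilocybin (3 mg/kg), a psychedelic agonist of serotonin receptors, or with isotonic saline as vehicle, after sham saline injections on the preceding days. The prefrontal cortex (PFC, labelled frontal cortex) and the whole hypothalamus of each mouse were taken 3 h or 4 weeks after the injection, which gave 8 groups of 8 libraries from 32 mice. All mice were killed in the morning, so the 3 h and 4 weeks groups differed in the interval since the injection, in age and in harvest day together, and these cannot be told apart. Each of 8 cages held 1 mouse of every treatment and time, and the cage number is the replicate number used below.

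Excitatory input raises calcium in a neuron, and calcium signalling to transcription factors such as CREB, SRF and MEF2 switches on a first wave of genes. Some of these encode transcription factors, among them NPAS4, while others act directly at the synapse. ARC drives endocytosis of AMPA receptors, the short form of HOMER1 uncouples postsynaptic scaffolds, the neuronal pentraxins NPTX1 and NPTX2 cluster AMPA receptors from the outside, GADD45B and GADD45G take part in stress signalling and DNA demethylation, and VGF and SCG2 are granin precursors of secreted peptides. Arc, Npas4 and Nptx2 are widely used as markers of recently active cortical neurons.

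Of the 64 libraries, 2 held 200066 and 211111 counts and were left out (PFC psilocybin 4 weeks replicate 3 and hypothalamus saline 3 h replicate 2). The other 62 held 8061033 to 70361839 counts with a median of 18287978.5. The summed level of 6 markers of cortical excitatory neurons was 1370 to 1962 counts per 1000000 (CPM) in PFC libraries and 32.7 to 131 CPM in hypothalamus libraries, and 9 hypothalamic markers summed to 1.25 to 23.3 CPM and 397 to 2815 CPM, so that both regions matched their labels. Markers of the adjoining striatum varied more among PFC libraries, from 257 to 2107 CPM. The highest sum was that of a library of the PFC saline 4 weeks group (median 300.3 CPM), and the other PFC groups reached at most 940.5 CPM. The hypothalamus psilocybin 4 weeks replicate 5 library stood apart from its group: its hypothalamic marker sum of 2815 CPM was the highest of all and its sum of 5 pan-neuronal markers, 3287 CPM, the lowest. Values without this library are given beside several of the results it touches. In the hypothalamus saline 4 weeks group the wound and immune marker sum reached 101.8 CPM (median 4.37), and the choroid plexus sum 1230 CPM (median 45.8). Wound and immune markers reached 70.4 CPM in the PFC psilocybin 3 h group (median 6.77). The paper excluded 1 sample enriched in wound healing and immune genes, which the labels do not name. No library was left out of the main fit on that ground. No pair of replicates looked like 1 library deposited again: the smallest chi-square per degree of freedom over 210 pairs was 3.85.

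In the GRCm38 coordinates of the count table, Arc (ENSMUSG00000022602.14) lies at chr15:74669083-74672568 on the minus strand. Npas4 lies at chr19:4984355-4989971 on the minus strand, and Homer1 at chr13:93299635-93403681 on the plus strand. Nptx1 is at chr11:119538719-119547753 (minus) and Nptx2 at chr5:144545902-144557478 (plus). Gadd45b is at chr10:80930073-80931652 and Gadd45g at chr13:51846678-51848224, both on the plus strand. Vgf is at chr5:137026392-137033351 (plus) and Scg2 at chr1:79434669-79440042 (minus). Homer1 overlaps the predicted genes Gm47088 and Gm47075 on its own strand, and the other 8 genes overlap none. The counts are sums over all exons of a gene, so the short activity-induced form of Homer1 and the long constitutive forms were not separated; an earlier release of the same annotation (GENCODE M21) lists 11 protein-coding Homer1 transcripts of 180 to 370 codons.

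The RefSeq promoter table (GRCm38.p6) held windows from 250 bases before to 50 bases after the start site for 5 of the 9 genes, Npas4, Homer1 (2 start sites), Gadd45b, Gadd45g and Scg2, and none for Arc, Nptx1, Nptx2 and Vgf. The bases before the start site are printed for 4 of them because they hold matches to sites known from activity-induced genes. Each is given 5′ to 3′ on the strand of the gene, with capitals for the CRE (TGACGTCA, the binding site of CREB), its short form (CGTCA, which is also part of the full site), the EGR site (GCGNGGGCG) and the TATA box (TATAAA), each searched on both strands.
Npas4, chr19:4989972-4990221, minus strand: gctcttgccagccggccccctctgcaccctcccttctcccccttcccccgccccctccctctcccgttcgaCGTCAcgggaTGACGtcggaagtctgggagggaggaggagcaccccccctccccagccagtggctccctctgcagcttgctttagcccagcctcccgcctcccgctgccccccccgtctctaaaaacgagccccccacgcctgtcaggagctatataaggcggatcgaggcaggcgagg
Homer1, chr13:93303507-93303756, plus strand: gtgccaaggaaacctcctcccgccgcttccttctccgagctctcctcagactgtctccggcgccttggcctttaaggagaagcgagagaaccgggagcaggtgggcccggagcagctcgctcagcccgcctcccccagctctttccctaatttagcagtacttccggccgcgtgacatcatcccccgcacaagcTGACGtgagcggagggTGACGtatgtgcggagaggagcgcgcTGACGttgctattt
Gadd45b, chr10:80929841-80930090, plus strand: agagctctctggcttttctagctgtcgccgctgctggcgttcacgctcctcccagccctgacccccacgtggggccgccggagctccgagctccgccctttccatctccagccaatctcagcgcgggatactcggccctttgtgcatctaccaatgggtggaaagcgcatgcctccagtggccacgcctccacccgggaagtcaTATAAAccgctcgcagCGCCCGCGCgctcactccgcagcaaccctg
Scg2, chr1:79440027-79440276, minus strand: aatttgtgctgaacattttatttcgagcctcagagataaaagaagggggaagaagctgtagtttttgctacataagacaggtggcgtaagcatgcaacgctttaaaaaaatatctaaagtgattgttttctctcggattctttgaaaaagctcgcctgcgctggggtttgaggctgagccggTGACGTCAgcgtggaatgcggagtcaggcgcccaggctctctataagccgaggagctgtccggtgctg
Scg2 held a full CRE beginning 68 bases before its start site, a match found in 1.79% of all 32851 windows in the table. Npas4 held a pair of facing short forms that begin 179 and 169 bases before the start, and Homer1 held 3 of them that begin 56, 40 and 14 bases before it. The short form was present in 20.8% of all windows. Gadd45b held a TATA box at 46 and an EGR site at 30 bases before the start (13.6% and 5.55% of all windows), and Gadd45g a TATA box at 27 bases before it. AP-1 sites (TGANTCA, 7.81% of all windows), CArG boxes (1.63%) and MEF2 sites (0.557%) were searched as well, with no match in the 6 windows. These matches describe the letters only.

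The first comparison was of the regions. Levels between genes are given as reads per kilobase of exon per 1000000 counts (RPKM), averaged over the 4 groups of a region. In PFC the order was Scg2 (97.5 RPKM), Nptx1 (79.7), Vgf (51.5), Arc (41.6), Nptx2 (24.0), Homer1 (22.1), Gadd45g (5.34), Gadd45b (4.91) and Npas4 (3.49). In hypothalamus Scg2 was far ahead at 340.0 RPKM, followed by Vgf (58.5), Nptx1 (16.6), Nptx2 (9.68), Gadd45g (9.39), Arc (6.03), Gadd45b (2.76), Homer1 (2.75) and Npas4 (1.18). The secreted granins thus led in hypothalamus, while Arc, Homer1 and Nptx1 stood higher in the order of PFC. Arc had the widest range of group means of any of the 9 in PFC, 10.2 to 72.4 RPKM.

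**Figure D1:**
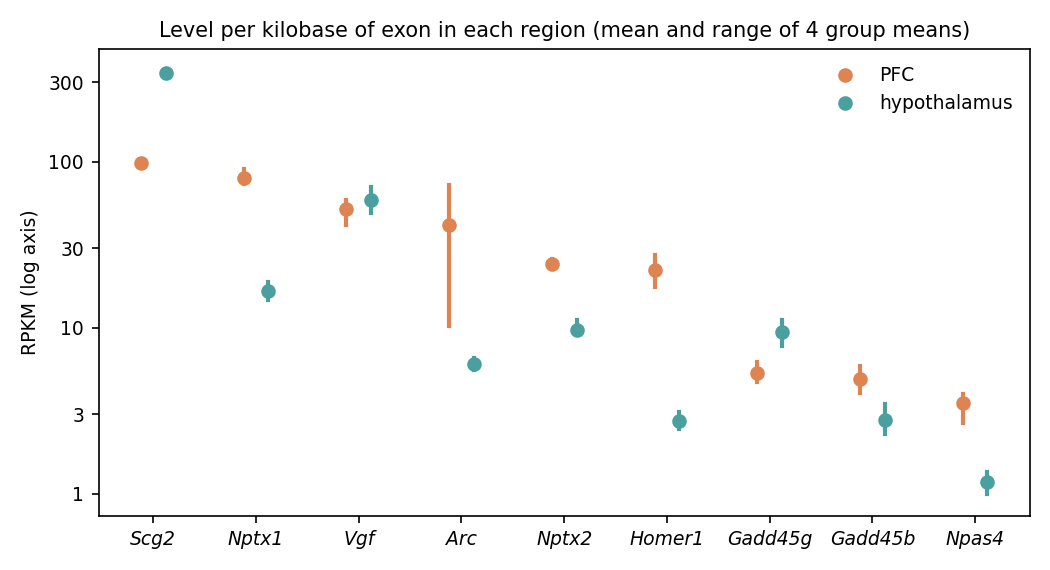
Level of each of the 9 genes in RPKM (log axis) in PFC (orange) and hypothalamus (teal); the point is the mean of 4 group means and the bar spans the lowest to the highest group mean. Scg2 stood at 340.0 RPKM in hypothalamus against 97.5 in PFC, Homer1 at 2.75 against 22.1, and the Arc bar in PFC ran from 10.2 to 72.4.

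In saline mice at 4 weeks, 6 of the 9 genes were higher in PFC than in hypothalamus and 2 were lower in the edgeR quasi-likelihood fit, whose p-values, adjusted after Benjamini and Hochberg over all genes tested, are used throughout. In this comparison 55.2% of all genes tested passed, 29.5% higher and 25.7% lower, so a call here is common. Homer1 was 210 ± 69.7 CPM in PFC and 29.3 ± 2.98 CPM in hypothalamus (SD, n = 8 each), a log2 fold change of 2.81 (SE 0.180, adjusted p = 1.26e-20). Nptx1 was 384 ± 37.0 and 79.2 ± 14.4 CPM, a log2 fold change of 2.27 (SE 0.114). For both genes every PFC library lay above every hypothalamus library. Nptx2 differed by 1.33 (SE 0.158), Npas4 by 1.39 (SE 0.200) and Gadd45b by 0.84 (SE 0.173) on the log2 scale. Arc differed by 1.89 (SE 0.384), or by 1.25 without the PFC saline 4 weeks replicate 3 library described below, and its ranges met at the low end of PFC.

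Scg2, which encodes secretogranin II, went the other way. It was 255 ± 24.5 CPM in PFC and 836 ± 89.8 CPM in hypothalamus, a log2 fold change of -1.71 (SE 0.0821, adjusted p = 1.11e-26) with no overlap between the groups. Gadd45g was also lower in PFC (-0.66, SE 0.228, adjusted p = 0.0118), at 5.66 ± 1.54 against 9.04 ± 1.15 CPM. Vgf, the other granin, was 143 ± 37.6 CPM in PFC and 145 ± 14.5 CPM in hypothalamus, and its difference of -0.04 had a 95% interval of -0.36 to 0.29. Saline mice at 3 h gave 6 higher and 2 lower calls in the same comparison (54.9% of all genes passed, 29.1% higher and 25.8% lower), among them Arc with a log2 fold change of 3.39 (SE 0.424) and Scg2 with -1.93 (SE 0.0845). The other 5 higher calls ran from 1.11 (Gadd45b) to 2.94 (Homer1), and Gadd45g gave -0.69. At 3 h the voom fit with sample weights and the fit of the 2 groups alone also called Vgf, lower in PFC (-0.30, adjusted p = 0.0419, and -0.32, adjusted p = 0.0207). That makes 9 members in place of 8, where those fits called 62% and 54.3% of all genes tested. Ordering all 8 group means of each gene, the step between the regions was larger than the larger SD of the neighbouring groups for Arc, Homer1, Npas4, Nptx1, Nptx2, Scg2 and Gadd45g. Neighbouring groups within a region were closer than that in all 9 genes, except that Npas4 in hypothalamus stepped from 5.55 CPM in the saline 4 weeks group to 4.29 CPM in the saline 3 h group. In these bulk samples fewer cells of a type and less RNA per cell cannot be told apart. All 5 pan-neuronal markers were higher in PFC at 4 weeks (median log2 fold change 1.05) and all 5 oligodendrocyte markers lower (-1.08), and their part in the regional differences was not tested.

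The time comparison asked which of these genes differed in a region between 3 h and 4 weeks after the same injection. Arc, the postsynaptic regulator of AMPA receptor endocytosis, was the member that differed in PFC, and it did so in saline as well as in psilocybin mice. In PFC saline mice Arc was 376.6, 180.4, 181.8, 442.3, 255.6, 43.8, 69.8 and 220.1 CPM in replicates 1 to 8 at 3 h, and 19.6, 25.2, 249.8, 37.7, 99.6, 32.2, 35.0 and 36.9 CPM at 4 weeks. Most 3 h libraries were thus several-fold above most 4 weeks libraries, but replicates 6 and 7 at 3 h were low and replicates 3 and 5 at 4 weeks were high, so the ranges overlapped. The means were 221 ± 137 and 67.0 ± 77.9 CPM (SD, n = 8 each), and the log2 fold change was 1.68 (SE 0.371, 3.19-fold, adjusted p = 0.00324), against 4.72% of all genes called.

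In PFC psilocybin mice Arc was 268.0, 311.2, 314.8, 143.2, 321.7, 46.2, 57.8 and 48.2 CPM in replicates 1 to 8 at 3 h. At 4 weeks the 7 libraries read 28.6, 32.3, 23.4, 30.4, 37.7, 27.5 and 37.9 CPM in replicates 1, 2 and 4 to 8. Here the groups did not overlap: the lowest 3 h library lay above the highest 4 weeks library. The log2 fold change was 2.40 (SE 0.409, 5.27-fold, adjusted p = 9.06e-05), with 5.96% of all genes called. Within the 3 h group the libraries fell into a high set, cages 1 to 5, and a low set, cages 6 to 8, and saline mice of cages 6 and 7 were the low ones of their group too.

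**Figure D2:**
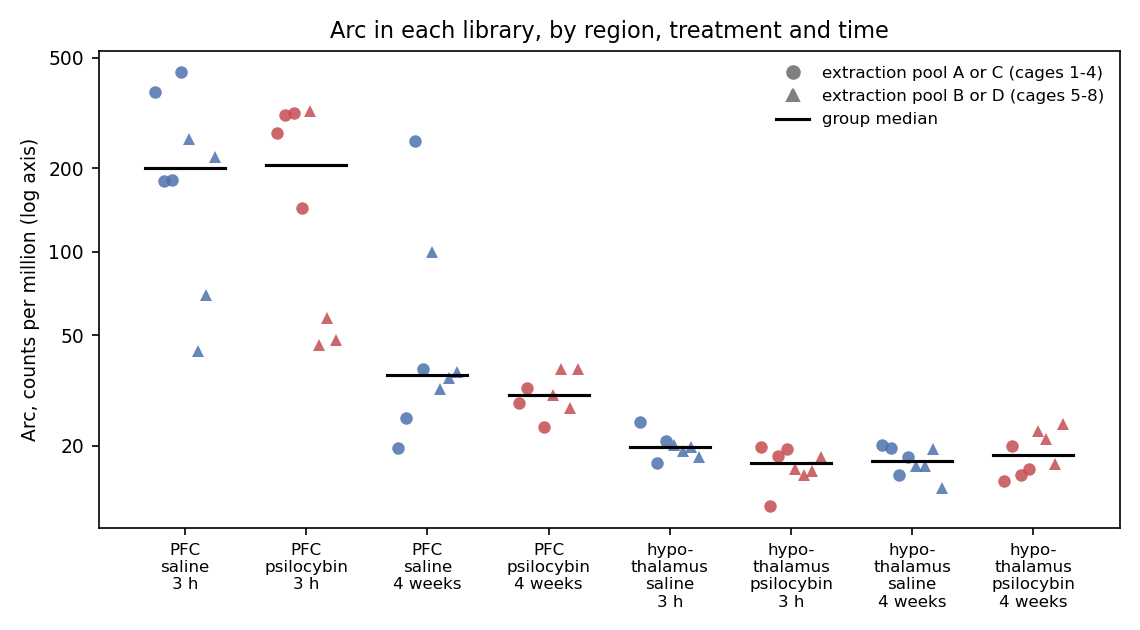
Arc in CPM (log axis) in each of the 62 libraries, by region, treatment and time; circles are extraction pools A or C (cages 1 to 4), triangles pools B or D (cages 5 to 8), blue is saline, red is psilocybin and the black line is the group median. PFC medians were 201 and 206 CPM at 3 h and 35.9 and 30.4 CPM at 4 weeks (saline and psilocybin), and all hypothalamus libraries lay between 12.1 and 24.4 CPM.

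The Arc difference in PFC kept its direction in each extraction pool alone, a split added after the data were seen, but with 3 or 4 mice a group it did not pass: 1.80 (SE 0.740, adjusted p = 0.213) in pool C and 1.51 (SE 0.733, adjusted p = 0.703) in pool D for saline, and 3.20 (SE 0.898, adjusted p = 0.113) and 1.83 (SE 0.740, adjusted p = 0.436) for psilocybin. A fit of the saline groups alone gave the same size, 1.66 (SE 0.582), and lost the call (adjusted p = 0.192). Leaving out each library in turn, Arc was called in 16 of 16 saline fits (1.52 to 2.31, the highest without saline 4 weeks replicate 3) and in 15 of 15 psilocybin fits (1.97 to 2.55).

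None of the other 8 genes passed the test for time in PFC in edgeR. With Arc, 4 of the 9 members in saline and 5 in psilocybin mice had an unadjusted p under 0.05, as did 3419 (18%) and 3875 (20.4%) of all genes. Homer1 was 197 to 452 CPM with a median of 266 at 3 h and 127 to 333 CPM with a median of 200.2 at 4 weeks in saline mice, a log2 fold change of 0.47 (SE 0.167, adjusted p = 0.0927). In psilocybin mice its values were 157 to 459 CPM (median 339) and 153 to 394 CPM (median 226), a log2 fold change of 0.44 (SE 0.173, adjusted p = 0.12). The groups overlapped in both treatments. With the cage as a block, the psilocybin difference was 0.48 (SE 0.150) and passed (adjusted p = 0.049), which brings the members called from 1 to 2. Voom called it too (0.49, adjusted p = 0.00177). The block fit called 5.2% of all genes in this comparison and voom 19.1%. Homer1 also passed in saline mice when the hypothalamus library that stood apart was left out of the fit (0.47, adjusted p = 0.043), without 3 h replicate 1 (0.54, adjusted p = 0.0438), and in psilocybin mice without 3 h replicate 7 (0.53, adjusted p = 0.0459).

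Among the genes for secreted proteins, Vgf in psilocybin mice was 110 to 301 CPM (median 156) at 3 h and 87.2 to 171 CPM (median 124) at 4 weeks, a log2 fold change of 0.49 (SE 0.167, adjusted p = 0.0652) that did not pass in edgeR. It passed with DESeq2 (adjusted p = 0.0482), with voom (adjusted p = 0.0307), in edgeR with the hypothalamus library that stood apart left out (adjusted p = 0.0378) and without 1 of 3 PFC libraries (3 h replicates 1 and 8, 4 weeks replicate 1), and it stood at 0.29 without 3 h replicate 7. In saline mice Vgf gave 0.28 (SE 0.161, adjusted p = 0.367). Nptx1, the constitutive neuronal pentraxin, gave 0.29 (SE 0.109, adjusted p = 0.113) in saline mice, where 6 of 8 libraries at 3 h lay above every library at 4 weeks, and 0.17 (SE 0.113) in psilocybin mice. Nptx2, the pentraxin known for strong induction by activity, gave 0.16 (SE 0.153) and 0.10 (SE 0.159). Scg2 gave -0.12 (SE 0.0801) and 0.04 (SE 0.0831), the tightest intervals of the 9 genes.

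Among the genes that act in the nucleus, Npas4 was 8.84 to 32.3 CPM (median 14.8) at 3 h and 7.12 to 33.5 CPM (median 11.9) at 4 weeks in saline mice. Its difference of 0.16 (SE 0.191, adjusted p = 0.725) lay within the spread, since each group had 1 library far above its others, at 32.3 and 33.5 CPM. Without saline 4 weeks replicate 3 it was 0.41. In psilocybin mice Npas4 gave 0.43 (SE 0.201, adjusted p = 0.211). Gadd45b gave 0.41 in both treatments (SE 0.168 and 0.175, adjusted p = 0.166 and 0.163), and Gadd45g gave 0.36 (SE 0.228) and 0.28 (SE 0.240). Of the 9 fitted differences in PFC, 8 were above zero in saline and 9 in psilocybin mice, with medians of 0.29 and 0.41 beside -0.00 and 0.01 over all genes tested; the members share libraries and are not independent of each other.

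**Figure D3:**
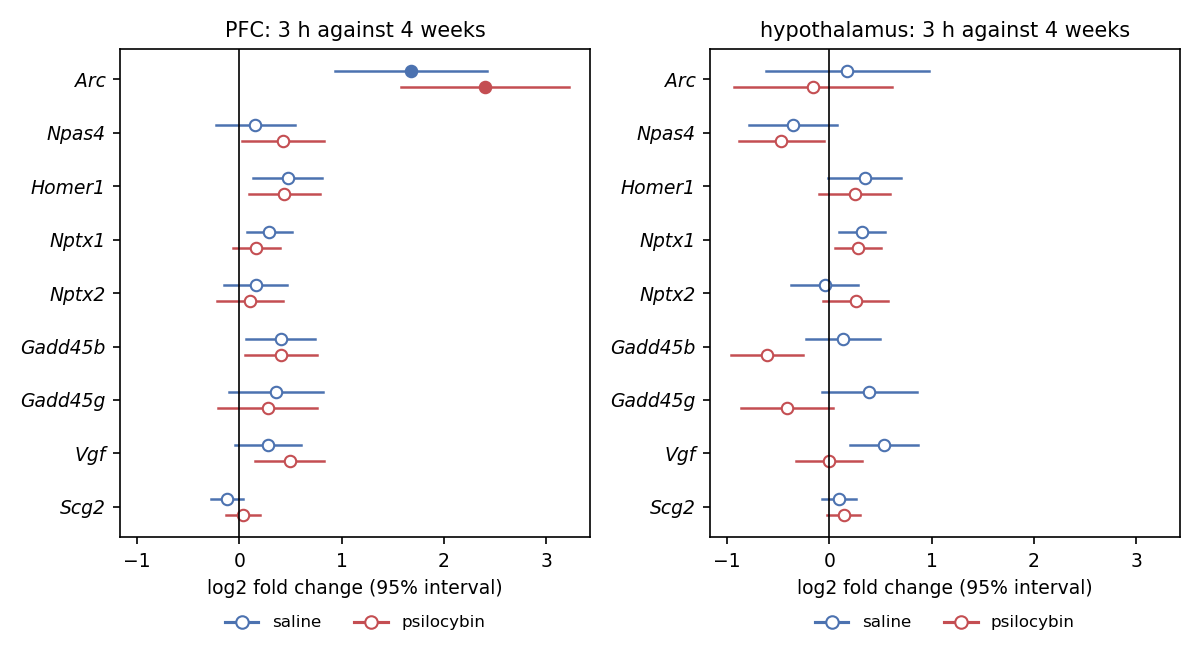
Log2 fold change of 3 h against 4 weeks for the 9 genes in PFC (left) and hypothalamus (right), in saline (blue) and psilocybin (red) mice; bars are 95% intervals, filled points passed the adjusted test and open points did not. Arc in PFC, at 1.68 and 2.40, holds the only filled points.

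In hypothalamus no member passed the time test in edgeR. Arc was 17.3 to 24.4 CPM at 3 h and 14.1 to 20.1 CPM at 4 weeks in saline mice (0.18, SE 0.397), and the 31 hypothalamus libraries spanned 12.1 to 24.4 CPM. The Arc standard error there is set by 1 dispersion over both regions, and fitting only the 2 groups gave 0.18 with an SE of 0.0761 (adjusted p = 0.21). Vgf was 189 to 222 CPM (median 211) at 3 h and 120 to 165 CPM (median 149) at 4 weeks in saline mice, with every 3 h library above every 4 weeks library. Its log2 fold change was 0.54 (SE 0.166, unadjusted p = 0.00196, adjusted p = 0.15). Gadd45g in the same mice, at 10.7 to 14.7 CPM against 7.79 to 10.7 CPM, also showed no overlap (0.39, SE 0.231, adjusted p = 0.76). Neither gene passed the test in this comparison, where 0.685% of all genes did. The share of all genes without overlap between groups was not computed for any comparison. The other members apart from Npas4 lay between -0.04 (Nptx2) and 0.35 (Homer1). The voom fit with sample weights, the kind of model the study used, called 3 members here, Vgf (0.54, adjusted p = 0.000278), Gadd45g (0.43, adjusted p = 0.00668) and Nptx1 (0.30, adjusted p = 0.0267), and the fit of the 2 groups alone called Vgf (adjusted p = 6.1e-05), Gadd45g (adjusted p = 0.016) and Homer1 (0.34, adjusted p = 0.0464). Those fits also called more of all genes tested, 1375 (7.25%) with voom and 635 (3.35%) with the 2 groups alone. At an unadjusted p under 0.05, edgeR gave 2 of the 9 members and 1535 of all genes (8.09%).

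In psilocybin mice the hypothalamic Vgf difference was 0.00 (SE 0.160), with 115 to 224 CPM at 3 h and 110.03 to 256 CPM at 4 weeks, and it was 0.14 (SE 0.161) without the library that stood apart. Gadd45b was 2.27 to 5.41 CPM (median 3.52) at 3 h and 3.46 to 11.97 CPM (median 4.72) at 4 weeks, a log2 fold change of -0.61 (SE 0.175, adjusted p = 0.0655; 1.16% of all genes passed). The highest value was that of replicate 5, the library that stood apart, and without it the difference was -0.37 (adjusted p = 0.389), while it passed without any 1 of 4 other libraries (3 h replicate 7 and 4 weeks replicates 2, 7 and 8, the lowest adjusted p being 0.0219 without 4 weeks replicate 7). Gadd45g turned from -0.41 to 0.16 without replicate 5. Npas4 gave -0.35 (SE 0.213, adjusted p = 0.766) in saline and -0.47 (SE 0.206, adjusted p = 0.23) in psilocybin mice and did not pass. The other 5 members lay between -0.16 (Arc) and 0.28 (Nptx1) in psilocybin mice. In these mice 3 of the 9 members and 3302 of all genes (17.4%) had an unadjusted p under 0.05, and DESeq2 called 1 member, Gadd45b, among 448 genes (2.36%).

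Whether the time difference itself was larger in PFC than in hypothalamus was tested in saline mice as an interaction. For Arc the difference of differences was 1.499 (SE 0.541, unadjusted p = 0.00773, adjusted p = 0.558), so it did not pass, and it passed for none of the other members, which lay between -0.26 (Vgf) and 0.51 (Npas4); 0.0369% of all genes tested did. A difference between the regions in the Arc time response was therefore not established by this test.

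The comparison at the centre of the study was psilocybin against saline at each time. No member was called in either region at either time by edgeR, DESeq2 or voom. At 3 h in PFC the share of all genes called by edgeR was 0.0105% (2 genes, beside 9 by DESeq2 and 1232 by voom with sample weights), and it was 0 in the other 3 comparisons; at an unadjusted p under 0.05 the counts of members were 0 (PFC 3 h), 1 (PFC 4 weeks), 0 (hypothalamus 3 h) and 2 (hypothalamus 4 weeks) of 9. In the same order, 7.23%, 2.4%, 1.78% and 9.61% of all genes tested had such a p. These comparisons use the same saline libraries as the time comparisons above.

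Arc in PFC at 3 h was 189 ± 128 CPM after psilocybin and 221 ± 137 CPM after saline, and the ranges, 46.2 to 322 and 43.8 to 442 CPM, overlapped over nearly their whole length. The log2 fold change was -0.24 (SE 0.360, adjusted p = 0.934) with a 95% interval of -0.96 to 0.48, and it was -0.21 in pool C and -0.29 in pool D. Under this model the interval leaves out a rise of Arc beyond 0.48 on the log2 scale. The bound rests on a dispersion shared with the hypothalamus libraries. With only these groups fitted the value was -0.24 with a larger SE of 0.473, and voom gave -0.08 (SE 0.344), so both leave room for a larger rise. The spread between mice of 1 group was too wide to detect a small difference. Homer1 gave 0.17 (95% interval -0.16 to 0.51) and Nptx2 -0.09 (-0.40 to 0.21). Npas4 gave -0.09 (-0.47 to 0.30), Gadd45b -0.14 (-0.47 to 0.20) and Gadd45g -0.18 (-0.64 to 0.28). Nptx1 gave -0.13 (-0.35 to 0.09), Vgf 0.02 (-0.30 to 0.34) and Scg2 0.08 (-0.08 to 0.24).

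At 4 weeks Arc in PFC was 31.1 ± 5.32 CPM after psilocybin (n = 7) and 67.0 ± 77.9 CPM after saline (n = 8). The log2 fold change of -0.96 (SE 0.391, unadjusted p = 0.0172, adjusted p = 1) rested on 1 saline library: without saline replicate 3 it was -0.43. With the cage as a block it was -0.45 (SE 0.369). The medians, 30.4 and 35.9 CPM, lay closer together than the means. The other 8 genes lay between -0.36 (Npas4) and 0.20 (Homer1), with adjusted p = 1 for each.

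In hypothalamus at 3 h, Nptx2 gave 0.30 (SE 0.163), with 18.9 to 35.8 CPM after psilocybin and 16.3 to 33.03 CPM after saline, and Vgf gave -0.32 (SE 0.166), with 5 of 8 psilocybin libraries below every saline library. Gadd45g gave -0.31 (SE 0.230), with 6 of 8 psilocybin libraries below every saline library, and by extraction pool -0.53 (SE 0.136, unadjusted p = 0.00111) in pool A and -0.12 (SE 0.470) in pool B. Gadd45b gave -0.26 and Arc -0.22 (SE 0.396, 95% interval -1.02 to 0.57, but SE 0.0908 and adjusted p = 0.964 with only the 2 groups fitted), and the other 4 genes lay between -0.10 (Nptx1) and -0.01 (Scg2). The adjusted p in the fit of all groups was 1 for each of the 9, also in pool A and in pool B. At 4 weeks Gadd45b gave 0.48 (SE 0.174, unadjusted p = 0.00811, adjusted p = 0.448) and Gadd45g 0.49 (SE 0.225, unadjusted p = 0.033, adjusted p = 0.477). Both turned on replicate 5 of the psilocybin group, at 11.97 CPM for Gadd45b where the next library was at 6.20, and at 44.6 CPM for Gadd45g where the next was at 10.3. Without that library Gadd45b gave 0.25 and Gadd45g -0.06, each with adjusted p = 1. Arc gave 0.12 (SE 0.385, or 0.110 with only the 2 groups fitted), and the other 6 genes lay between -0.06 (Nptx1) and 0.22 (Vgf), or between -0.17 (Nptx2) and 0.15 (Homer1) without that library.

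**Figure D4:**
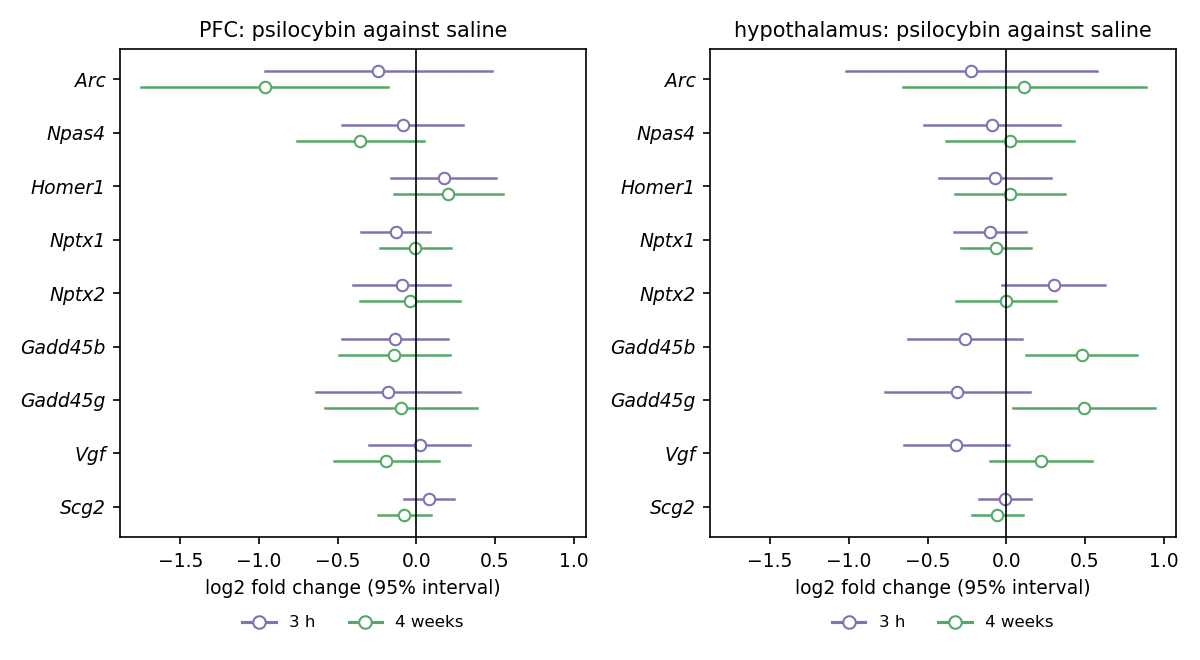
Log2 fold change of psilocybin against saline for the 9 genes in PFC (left) and hypothalamus (right), at 3 h (purple) and 4 weeks (green); bars are 95% intervals and open points did not pass the adjusted test. All 36 points are open, and the intervals of Arc, such as -0.96 to 0.48 at 3 h in PFC, are the widest.

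The test of whether the psilocybin difference itself changed from 3 h to 4 weeks gave no call in either region. In PFC it was 0.72 for Arc (SE 0.530, adjusted p = 1), and 0.06 with the cage as a block, while the other 8 genes lay between -0.13 (Nptx1) and 0.27 (Npas4). In hypothalamus it was -0.74 for Gadd45b (SE 0.252, unadjusted p = 0.00466), -0.80 for Gadd45g (SE 0.322) and -0.54 for Vgf (SE 0.231), each with adjusted p = 0.904. Without the library that stood apart these were -0.51, -0.25 and -0.41, each with adjusted p = 1. In the fit with that library 0 of all genes tested passed, 999 had an unadjusted p under 0.05 (5.27%), and 3 of the 9 members did. The other 6 lay between -0.34 (Arc) and 0.30 (Nptx2, or 0.47 without that library). The psilocybin difference at 3 h was compared between the regions in the same way, with values from -0.39 (Nptx2) to 0.34 (Vgf) and no call.

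How the members varied among mice of the same group was described by correlating the deviations of log2 CPM from the group means over the 31 libraries of a region. In PFC Arc went with Npas4 (r = 0.73) and Gadd45b (0.57), less with Nptx1 (0.43), and hardly with Homer1 (0.13), Scg2 (0.14) or Gadd45g (-0.07). Saline 4 weeks replicate 3 was the highest of its group in both genes, with Npas4 at 33.5 CPM. In the saline 3 h group Npas4 was highest in replicate 1 (32.3 CPM), the library second in Arc, while replicate 4, the highest in Arc, had Npas4 at 19.7 CPM. Nptx1, Nptx2 and Vgf correlated with each other at 0.53 to 0.67, and Npas4 with the same genes at 0.46, 0.56 and 0.54. Homer1 and Gadd45g moved in opposite directions (-0.64). In hypothalamus Arc and Npas4 gave 0.39, Gadd45b and Gadd45g 0.76, and Homer1 and Gadd45g -0.77. Over the 30 libraries without the one that stood apart, a choice added after the data were seen, these were 0.39, 0.60 and -0.42. The points of these correlations share libraries and depth, and each r is a description.

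**Figure D5:**
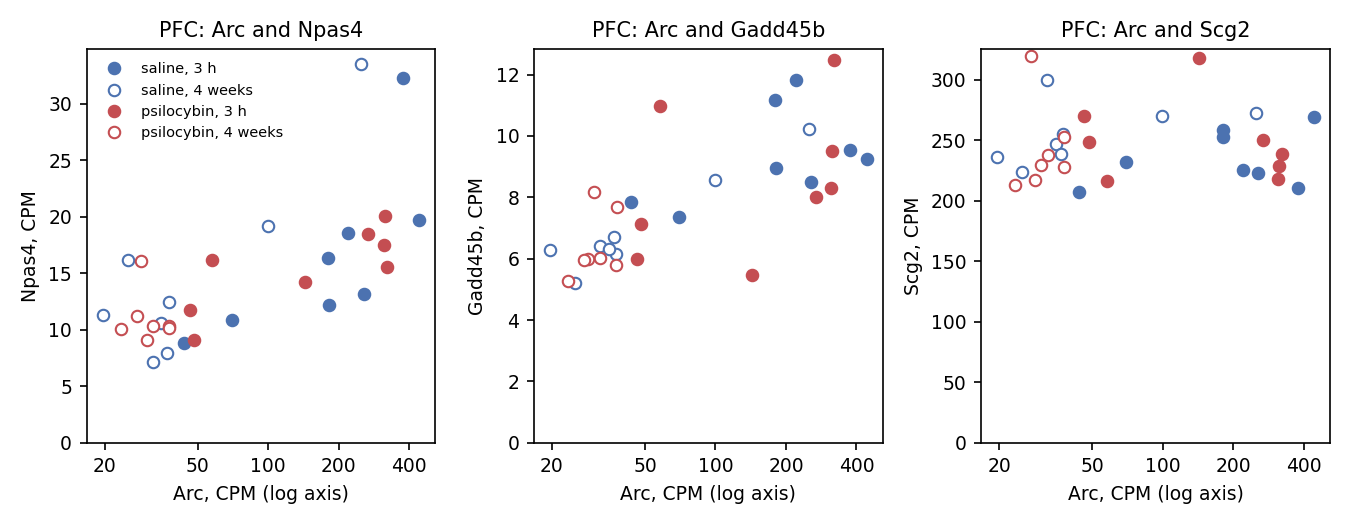
Npas4, Gadd45b and Scg2 (CPM, linear axes from 0) against Arc (CPM, log axis) in the 31 PFC libraries; blue is saline, red psilocybin, filled 3 h and open 4 weeks. Npas4 and Gadd45b were higher in the libraries with high Arc (r of log2 CPM over all libraries 0.72 and 0.74), whereas Scg2 stayed between 207 and 320 CPM across the Arc range (r = 0.00).

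The Arc level of a mouse in PFC did not go with its level in hypothalamus (r of deviations -0.03 over 30 mice with both libraries), and the highest such value among the members was 0.46 for Gadd45g, or 0.39 without the mouse of that library. Markers of tissue makeup moved with several of the other genes within groups. In PFC Homer1 went with the sum of 5 pan-neuronal markers (r = 0.90), and Nptx1 and Vgf with the sum of 6 cortical excitatory markers (0.85 and 0.73). Nptx1, Vgf and Npas4 went against the striatal sum in PFC (-0.69, -0.49 and -0.44), while Scg2 and Gadd45g had the other sign (0.37 and 0.03). Gadd45g went against the pan-neuronal sum in PFC (-0.72) and in hypothalamus (-0.87), and hypothalamic Homer1 went with it (0.82). Without the library that stood apart, the hypothalamic values were -0.63 and 0.59, and Homer1 went more closely with 8 striatal markers there (0.83, beside 0.63 with it). Glial markers moved with other members: Nptx1 went against the astrocyte sum in PFC (-0.77) and in hypothalamus (-0.74, or -0.83 without that library) and against the microglial sum (-0.73 and -0.75, the latter -0.71 without it), hypothalamic Npas4 went against the astrocyte sum (-0.74 with and without it), and hypothalamic Scg2 against the oligodendrocyte sum (-0.71, or -0.66). Gadd45g went with the hypothalamic marker sum in hypothalamus (0.81, or 0.44), and for Nptx2 and Scg2 the sign of that relation rested on the library (0.10 and -0.17 with it, -0.53 and 0.41 without), as did that of Nptx2 with the pan-neuronal sum (-0.18, or 0.36) and of Scg2 with the same sum (0.31, or -0.14). Between the times, 0 of the 6 cortical excitatory and 0 of the 5 pan-neuronal markers were called in PFC in either treatment, with summed levels of 1430 to 1962 CPM at 3 h and 1414 to 1830 CPM at 4 weeks for the former in saline mice. The hypothalamic markers Nkx2-1 and Trh were lower at 3 h in PFC saline mice (-2.24 and -1.60, 2 of 9 called), at list sums of at most 6.63 CPM at 3 h and up to 23.3 CPM at 4 weeks. In PFC 1 of 5 microglial markers, Tmem119, was higher at 3 h in saline and in psilocybin mice (0.53 and 0.55), and in psilocybin mice the astrocyte marker Aldh1l1 (0.35) and the immune marker Cd14 (0.79) were higher and the thalamic marker Ntng1 (-0.63) lower. In hypothalamus 1 of 5 endothelial markers, Ly6c1, was higher at 3 h in saline mice (0.76). The part of tissue makeup in the results above was not tested.

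By likeness of log2 CPM over the 31 PFC libraries, the genes outside the activity lists closest to Arc were Arl4d (r = 0.93), Gpr3 (0.89), Mycn (0.85), Ier5 (0.85) and Stk40 (0.85). In hypothalamus they were Fam222a (0.71), Drd2 (0.70), Insc (0.69), Frmd8 (0.68) and Tmem151a (0.66), with no gene shared between the lists. Without the library that stood apart, the r of these 5 ran from 0.64 to 0.69.

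Genes that neurons induce together with the 9 effectors were followed as lists. Of 19 early transcription factors, 11 were higher and 0 lower at 3 h than at 4 weeks in PFC saline mice, and 11 and 0 in psilocybin mice; 2.39% and 2.7% of all genes tested were called higher. The median log2 fold changes of the list were 0.73 and 0.83. The 3 with the smallest p were the zinc finger factor Egr2 at 2.44 (SE 0.305) and 2.33 (SE 0.321), the orphan nuclear receptor Nr4a3 at 1.27 and 1.10, and Egr1 at 1.198 and 1.15. Fos (1.23 and 1.70) and, in psilocybin mice, Junb (1.29) were larger than Egr1 in fold with wider errors. Of 30 other activity-induced effectors, 12 were higher in saline and 16 in psilocybin mice and none lower in edgeR. With voom the effectors gave 13 higher and 1 lower in saline and 22 higher and 2 lower in psilocybin mice, and the early factors 11 and 13 higher, where it called 5.98% and 19.1% of all genes. Among them were Bhlhe40 (0.96 and 0.82), a circadian and activity-linked repressor, and Dusp4 (1.14 and 1.07), a phosphatase of MAP kinases. In hypothalamus 2 of the 19 early factors passed in each treatment, Fosb (1.37 and 0.89) and Fosl2 (0.70 and 0.71), and 2 and 3 of the 30 effectors, where 0.685% and 1.16% of all genes were called. With voom these were 4 and 3 early factors and 5 and 3 effectors (7.25% and 3.29% of all genes). Both treatments shared Cdkn1a, a cell cycle inhibitor, at 1.22 and 1.29, and Bdnf, the neurotrophin, at 0.40 and 0.51, and Spry4 passed in psilocybin mice (0.60). The regional interaction passed for 1 of the 30, Bhlhe40 (1.12, adjusted p = 5.33e-06). Between psilocybin and saline, edgeR and DESeq2 called no gene of either list in any of the 4 comparisons. The voom fit called 3 of the 30 effectors higher after psilocybin in PFC at 3 h, where it called 6.49% of all genes: Bdnf (0.32, SE 0.0782, adjusted p = 0.0114), Fbxo33 (0.26, adjusted p = 0.0121) and Crem (0.30, adjusted p = 0.0458). In edgeR the same genes gave 0.18 (SE 0.0864, adjusted p = 0.681), 0.14 (adjusted p = 0.706) and 0.17 (adjusted p = 0.727). In the other 3 comparisons voom called none of either list.

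Genes whose products work with the members were followed as 6 further lists. Of 6 partners of the Gadd45 proteins, the third family member Gadd45a was higher at 3 h in PFC of saline (0.74, SE 0.170, adjusted p = 0.00411) and psilocybin mice (0.73, SE 0.179, adjusted p = 0.00732). Of 7 Arc partners, 1 passed in saline mice, the endophilin Sh3gl1, which binds ARC in endocytosis (0.28, adjusted p = 0.0443), and it gave 0.23 (adjusted p = 0.118) in psilocybin mice. Of 8 Homer partners, 1 passed in saline mice, the scaffold Shank2 (0.31, adjusted p = 0.0358), and it gave 0.18 (SE 0.0943, adjusted p = 0.268) in psilocybin mice. Single calls of this kind stand beside 4.72% of all genes called in saline and 5.96% in psilocybin mice, and the test of the difference between the treatments gave -0.05 (SE 0.125) for Sh3gl1 and -0.13 (SE 0.131) for Shank2, each with adjusted p = 1. None of the 2 Npas4 partners, 5 pentraxin partners or 9 granins and peptide-processing genes passed in PFC in edgeR, and no gene of these 6 partner lists passed in hypothalamus. The voom fit, which called 19.1% of all genes over time in PFC psilocybin mice, called 4 of the 9 granins and peptide-processing genes higher there (Pcsk1, Scg5, Scg3 and Cpe), the Homer partner Homer2 higher and the Npas4 partner Arnt lower. Of the Gadd45 partners it called 2 higher and 1 lower in these mice (Gadd45a, Tet3 and Tet1). It called Tet3 higher and the pentraxin partner Gria4 lower in PFC saline mice (5.98% of all genes), and in hypothalamus saline mice (7.25% of all genes) it called Dnm2 and Map3k4 higher and Nptxr lower. Between the regions in saline mice at 4 weeks, where 55.2% of all genes tested were called (29.5% higher in PFC), 5 of 7 Arc partners were higher and 0 lower. Of the 8 Homer partners 6 were higher and 1 lower, and of the 5 pentraxin partners 3 and 1. The IP3 receptor Itpr1, which binds HOMER1, differed by 2.37 (SE 0.118) and the pentraxin receptor Nptxr by 1.66 (SE 0.0955). Both Npas4 partners were higher, 1 of 6 Gadd45 partners was higher and 3 lower, and 3 of 9 granins and peptide-processing genes were higher and 3 lower.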

How the data were processed

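Poly-A RNA of the 64 tissue samples was sequenced as stranded paired-end libraries. According to the sources, the authors used bcl2fastq 2.20.0, STAR 2.7.2b with GRCm38 and GENCODE M25, and featureCounts 1.6.2, and deposited raw read counts per gene. From these deposited counts, the 62 libraries with at least 1000000 counts (8061033 to 70361839) were fitted in edgeR 4.0.16 (R 4.3.3), with TMM normalization, filterByExpr at a minimum count of 10, and a robust quasi-likelihood model with the 8 groups and the extraction pool as terms. That left 18971 genes, and 14 comparisons were tested with Benjamini-Hochberg adjustment at 0.05. All p-values adjusted in this way run over all genes tested. CPM uses the TMM library sizes, and RPKM divides it by exon length. No column was left unmapped.

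The members, gene lists and tests were chosen with earlier results of these data known. Every member was tested in every comparison and is given by its own value or within a range over members. From each other list up to 3 genes with the smallest p are given. Fos and Junb were added for their fold, and genes called by voom were added as well. Per region the 5 genes outside the lists most correlated with Arc are given (log2 CPM, prior count 2). The replicate number is the cage, per the labels, so the pairing comes from the labels. Deviations from group means correlated at 0.0806 on average between PFC libraries of 1 cage and at -0.0423 between cages (hypothalamus 0.0723 and -0.0385). A fit with the cage as a block, DESeq2 1.42.0, limma 3.58.1 voom with sample weights, other filters, other library sets, and each library left out in turn were the alternatives. Extraction pools differ between the regions, so that pool and region cannot be told apart. The fit was tested on simulated data. Depth bounds the precision most for Npas4, Gadd45b and Gadd45g, and the spread between mice covers counting error as well.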

Additional observations from a re-analysis of the deposited data

Results flagged for a closer look

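Within groups, 8 of 72 sets of gene and group held a library far from the others by Dixon's criterion, applied to CPM. Its rate of about 1 set in 20 by chance holds for independent sets with a normal spread. These sets share libraries and CPM is skewed, so the count is a description and was not tested against chance. The PFC saline 4 weeks replicate 3 library held 3 of them, with Arc at 249.8 CPM (the nearest other library at 99.6), Npas4 at 33.5 CPM (19.1) and Vgf at 223 CPM (154.9). Its summed cortical excitatory markers, 1751 CPM, lay within the range of its group, and the Arc difference between psilocybin and saline at 4 weeks went from -0.96 to -0.43 without it. Npas4 was also far from its group in PFC saline 3 h replicate 1, at 32.3 CPM (19.7), and in PFC psilocybin 4 weeks replicate 1, at 16.1 CPM (11.2). The hypothalamus psilocybin 4 weeks replicate 5 library held Gadd45b at 11.97 CPM (6.20) and Gadd45g at 44.6 CPM (10.3), beside a pan-neuronal marker sum of 3287 CPM, the lowest of all libraries. Scg2 stood at 319.5 CPM (252) in PFC psilocybin 4 weeks replicate 7.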

How the results depend on the processing

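No value of a member that passed the test changed sign under any alternative. Of 3915 values of single genes under alternatives, 196 had another sign than the value reported, 4 of them by more than their own standard error, all for genes that did not pass. For PFC saline mice over time the number of members called was 1 in the main fit, beside 4.72% of all genes. It went to 2 without the hypothalamus library that stood apart (61 libraries, 8.25% of all genes). It went to 0 with only the groups compared (1.54%), and leaving out each library gave 1 to 2. For PFC psilocybin mice over time the number went from 1 (5.96% of all genes) to 2 with DESeq2 (7.84%). The replicate block (5.2%) and 61 libraries (11.3%) gave 2 as well, and voom 3 (Arc, Homer1 and Vgf, 19.1%). Leaving out each library gave 1 to 2. For hypothalamus saline mice over time the number went from 0 (0.685%) to 3 with voom (7.25%) and with only the groups compared (3.35%). For hypothalamus psilocybin mice over time the number went from 0 (1.16% of all genes) to 1 with DESeq2 (2.36%). It also went to 1 with at least 10 counts required in every library (2%), and leaving out each library gave 0 to 1. For PFC against hypothalamus in saline mice at 3 h the number went from 8 to 9 with voom (62% of all genes). With only the groups compared it was 9 as well (54.3%). The causes were not tested. The replicate block changed no other call of a member. Calls between psilocybin and saline stayed at 0 members under every alternative run.

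The number of all genes called moved more. PFC saline mice over time gave 896 genes, 292 with only the groups compared, 425 with no filter, 521 with all 64 libraries and 1565 with 61. PFC psilocybin mice over time gave 1131, 552 with no filter, 666 without the pool, 2139 with 61 libraries and 3614 with voom. Hypothalamus saline mice gave 130, 53 with all 64 libraries, 60 with no filter, 226 with 61, 635 with only the groups compared and 1375 with voom, and psilocybin mice 220, 31 with only the groups compared, 96 with all 64 libraries, 448 with DESeq2 and 624 with voom. Psilocybin against saline at 3 h in PFC gave 2, 0 with only the groups compared, 1 each with no filter, without the pool and with all 64 libraries, 6 with 61, 9 with DESeq2 and 1232 with voom. At 4 weeks DESeq2 gave 19 in PFC and 13 in hypothalamus where edgeR gave 0. Single genes at a few CPM, such as Gadd45b with 27 to 325 counts in hypothalamus psilocybin libraries, carry the most counting error.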
